A study of Homo sapiens with 6 samples.

Results

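The carriers named SLC25A followed by a number were followed in RNA from human breast cancer xenografts 3 days after X-ray irradiation. The gene table has 48 such rows among 60606 genes, and 40 of the 48 had a mean of at least 1 TPM over the 6 tumors and were measured here. TPM is a transcript's share of the RNA in a sample after scaling for gene length. Members were chosen by name and by their mean TPM over both groups together, so levels are described and not tested. Just inside the limit were SLC25A27 at a mean of 1.90 TPM and SLC25A21 at 2.42 TPM, and just outside it were SLC25A34 at 0.195 TPM and SLC25A18 at 0.152 TPM. Both group means were above the limit in each of the 40.

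Mitochondrial carriers are small proteins of the inner mitochondrial membrane that let nucleotides, phosphate, metabolic acids, amino acids, cofactors and metal ions pass between the cytosol and the matrix. Most of them exchange a substrate on one side for another on the opposite side, so that ATP made inside leaves as ADP enters, and citrate or aspartate leaves as malate or glutamate enters. In cancer cells they are known for linking respiration to the supply of building blocks in the cytosol. A few family members sit in other membranes, among them SLC25A46 in the outer mitochondrial membrane and SLC25A17 in peroxisomes.

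The irradiated group was 3 tumors given a single local dose of 10 Gy at about 800 mm3 and collected 3 days later, and the control group was 3 tumors that were not irradiated, for which no volume or collection day is recorded. All 6 grew under the skin of NOD/SCID/IL2Rγ-null (NSG) mice, which lack T, B and natural killer cells, from unmodified MDA-MB-231 cells injected with Matrigel. MDA-MB-231 is a line of triple-negative breast cancer cells with mesenchymal features. Whether each tumor grew in its own mouse is not recorded, so the p-values below reflect only how much these 6 samples vary, which may be technical in part. A host mouse still contributes vessels, fibroblasts, muscle and myeloid cells, and how mouse reads were treated is not given in the sources used here.

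The line's list held genes expressed in it, such as VIM, and also ESR1, ERBB2 and CDH1, listed as low or absent in it. VIM was at 3148 to 3685 TPM in irradiated tumors and 3797 to 5283 TPM in controls. ESR1 and CDH1 stayed at or below 0.32 TPM, whereas ERBB2 was not absent, at 25.4 to 40.7 TPM. The 10 genes of the line's list summed to 4724 to 5533 TPM in irradiated tumors and 6729 to 7529 TPM in controls. VIM made up most of that sum. Of the 8 measured, SPARC was called lower (log2 fold change -1.43, limma adjusted p = 0.0437), and VIM, CD44 and AXL were below all controls without being called. In CAV1, KRT18, MSN and ERBB2 the groups overlapped, with log2 fold changes of -0.02, 0.08, -0.20 and 0.08. Marker lists of other cells also differed between the groups. The 18 skeletal muscle markers summed to 3.01, 146 and 3.31 TPM in irradiated tumors 1, 2 and 3, against 206, 274 and 559 TPM in controls, and 3 of the 14 measured were called lower, with none of the 18 at 0 in all tumors. In controls ACTA1, TNNC2 and CKM made up most of that sum. MB, PVALB and TTN stayed at or below 0.66 TPM, and MB was above 0 only in irradiated tumor 2. The 10 fibroblast markers summed to 133 to 216 TPM in irradiated tumors and 479 to 1007 TPM in controls, with 3 of 7 called lower. Those 3, COL1A1, COL1A2 and COL3A1, made up most of the sum, whereas PDGFRB averaged 8.09 TPM in irradiated tumors and 3.51 TPM in controls (log2 fold change 0.95, limma adjusted p = 0.211), and LUM, PDGFRA and THY1 stayed at or below 0.39 TPM. The 8 macrophage markers summed to 284 to 325 TPM in irradiated tumors and 195 to 237 TPM in controls, with 0 of 4 called and TYROBP at 0 in all tumors. CD68 and LAPTM5 made up most of that sum, and CSF1R averaged 4.45 TPM in irradiated tumors and 5.38 TPM in controls and AIF1 1.80 TPM in irradiated tumors and 2.72 TPM in controls. The part of these cells in the results below was not tested. In bulk RNA, fewer cells of a type and less RNA per cell cannot be told apart. Control tumor 2 stood apart on the second principal component, which held 19.1% of the variance.

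None of the 40 carriers passed the test between irradiated and control tumors. The test was limma on log2(TPM + 1) over 14140 genes with Benjamini-Hochberg adjustment at 0.05, which called 2.98% of all genes tested, 1.37% higher and 1.61% lower. The lowest adjusted p in the family was 0.0547, for SLC25A4, the ADP/ATP carrier of heart and skeletal muscle. At an unadjusted p under 0.05 there were 2 carriers higher and 6 lower, 20% of the 40 against 20.5% of all genes tested (8.93% higher and 11.5% lower). In 3 carriers all irradiated tumors lay above all controls, and in 7 all lay below, together 25% of the 40 against 26.6% of all genes. By direction these were 7.5% higher against 11.6%, and 17.5% lower against 15%. The median log2 fold change, irradiated minus control, was -0.12 over the family and -0.06 over all genes, and 62.5% of carriers and 55.7% of all genes had a value below 0. Without control tumor 1 the family median was -0.02 and that of all genes 0.02. Without control tumor 2 they were -0.18 and -0.13. Over both directions, the shares at an unadjusted p and without overlap were near those of all genes.

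**Figure D1:**
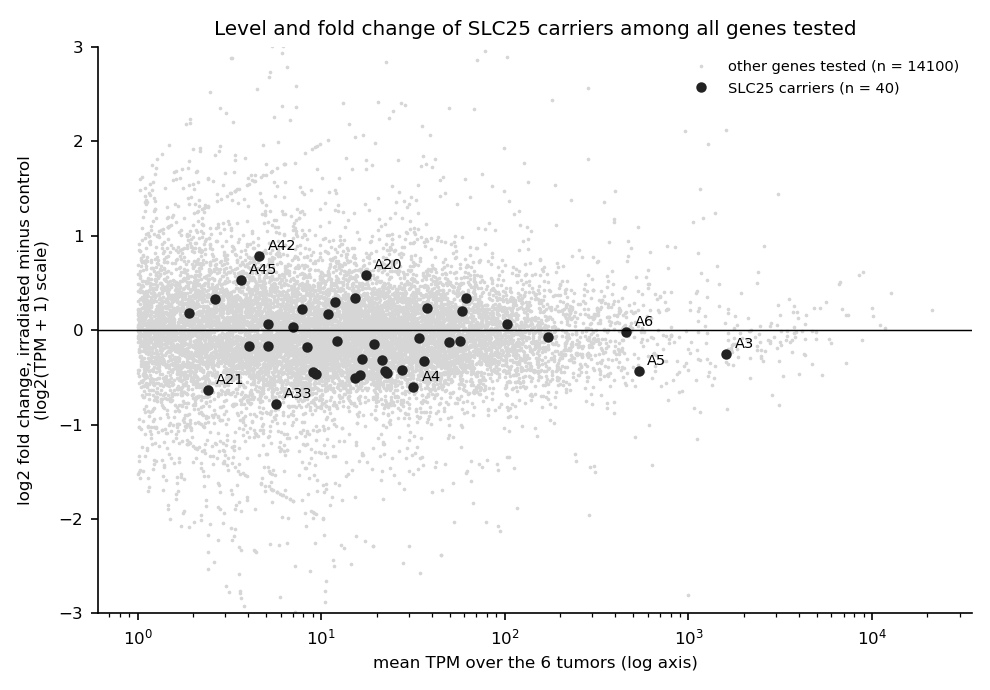
Mean TPM over the 6 tumors (log axis) against the log2 fold change, irradiated minus control, for the 40 SLC25 carriers (black) and the 14100 other genes tested (grey); 57 other genes lie beyond the limits of the vertical axis at 3. The carriers spread over the range of levels and lie between -0.78 and 0.78.

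The precision of 3 tumors against 3 sets what could be seen. The 95% interval of the log2 fold change reached a median of 0.47 to either side of the estimate. It included 0 in 32 carriers, and in 34 it stayed within 1 log2 unit of no difference. A p that misses the threshold does not show that a carrier was the same in both groups. The count of 0 became 1 (SLC25A4) with a minimum mean of 5 TPM, and 2 (SLC25A4 and SLC25A33) with sample weights.

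Mean levels ran from 1.90 TPM for SLC25A27 to 1605 TPM for SLC25A3. SLC25A3, the phosphate carrier, had 1193, 1399 and 1797 TPM in irradiated tumors 1, 2 and 3 and 2142, 1408 and 1691 TPM in the controls. Its groups overlapped, with a log2 fold change of -0.26 (95% interval -0.71 to 0.20, limma adjusted p = 0.502). Together SLC25A3, SLC25A5, SLC25A6 and SLC25A39 made up 74.9% to 79.0% of the family's summed TPM in irradiated tumors and 78.0% to 80.3% in controls. That sum over all 40 was 2977, 3249 and 3667 TPM in irradiated tumors and 4297, 3305 and 3777 TPM in controls, and control tumor 2 was inside the irradiated range. Of the 40, 5 averaged 100 TPM or more, 21 lay between 10 and 100 TPM and 14 below 10 TPM. Across the 40 carriers, level and log2 fold change were nearly unrelated (Spearman's rho = -0.085, the points sharing the same 6 libraries).

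Single tumors differed among themselves as well. Control tumor 1 held the highest of the 6 values in 19 of 40 carriers, and control tumor 2 the lowest of the 3 controls in 27. The coefficient of variation between tumors had a median of 15% in irradiated tumors and 19.1% in controls. It was smallest in the irradiated tumors for SLC25A42, at 2.84%, and in the controls for SLC25A4, at 2.32%.

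The ADP/ATP carriers bring ADP into the matrix and ATP out. SLC25A4 had 24.2, 26.7 and 23.9 TPM in irradiated tumors 1, 2 and 3, against 37.59, 38.15 and 39.33 TPM in the controls. All irradiated tumors were below all controls, and values within each group were close together. The log2 fold change was -0.60 ± 0.13 (SE; 95% interval -0.91 to -0.29, limma adjusted p = 0.0547), and with single tumors left out the adjusted p ranged from 0.0528 without control tumor 2 to 0.198 without irradiated tumor 1. Since SLC25A4 is known as the muscle isoform, the muscle markers bear naming beside it, at 3.01 to 146 TPM in irradiated tumors and 206 to 559 TPM in controls. Within the irradiated group tumor 2 had both the highest muscle sum and the highest SLC25A4. Irradiated tumors 1 and 3 had opposite orders, with muscle sums of 3.01 and 3.31 TPM and SLC25A4 at 24.2 and 23.9 TPM. In control tumors 1, 2 and 3 the muscle sums were 206, 274 and 559 TPM. SLC25A4 had the same order there, but within a narrow range of 37.59 to 39.33 TPM. The part of muscle RNA in the difference was not tested.

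SLC25A5, the isoform of dividing cells, had 463, 506 and 401 TPM in irradiated tumors and 698, 549.65 and 600.5 TPM in controls. Again no irradiated tumor reached a control, and the log2 fold change was -0.43 ± 0.14 (SE; 95% interval -0.76 to -0.10, limma adjusted p = 0.141). SLC25A6, a widely expressed isoform, had 399, 431 and 539 TPM in irradiated tumors and 414, 494 and 473 TPM in controls. Its groups overlapped and its log2 fold change was -0.02 (95% interval -0.36 to 0.32, adjusted p = 0.957), a sign that turned with medians of ratios and with mitochondrially encoded and ribosomal protein genes left out. The testis isoform SLC25A31 was listed at 0 in every tumor. The 3 isoforms summed to 887, 964 and 964 TPM in irradiated tumors and 1149, 1081 and 1113 TPM in controls. Of that sum SLC25A4 made up 2.66% ± 0.16 in irradiated tumors and 3.44% ± 0.15 in controls (SD, n = 3 each), with no overlap between the groups.

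The transcripts of the 3 isoforms are related but distinct, which bears on how reads could be assigned to them. In GENCODE release 29 (GRCh38) each has 894 coding bases, identical in all 3 at 69.5% of positions. SLC25A5 and SLC25A6 share the longest exact run, 29 bases, against 20 for SLC25A4 with SLC25A6 and 14 for SLC25A4 with SLC25A5. The stretch below, coding bases 52 to 111, has 51 of 60 positions identical in all 3. No other window of 60 bases compared, each starting on a codon and inside a single exon, had more. Capitals mark the 9 positions that are not identical in all 3. The SLC25A4 stretch lies at chr4:185143424-185143483 on the plus strand, that of SLC25A5 at chrX:119468567-119468626 on the plus strand and that of SLC25A6 at chrX:1391899-1391958 on the minus strand.
SLC25A4: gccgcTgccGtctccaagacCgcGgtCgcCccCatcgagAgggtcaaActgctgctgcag
SLC25A5: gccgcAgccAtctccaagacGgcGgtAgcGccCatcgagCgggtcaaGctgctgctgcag
SLC25A6: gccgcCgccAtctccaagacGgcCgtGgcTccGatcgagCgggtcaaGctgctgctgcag

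The magnesium-ATP carriers, which exchange ATP with magnesium for phosphate and so set the size of the matrix nucleotide pool, had no unadjusted p under 0.05. SLC25A24, a calcium-regulated form found in many cancer lines, averaged 32.1 ± 3.98 TPM in irradiated tumors and 40.4 ± 4.71 TPM in controls (SD, n = 3 each, log2 fold change -0.32, limma adjusted p = 0.295). Its relatives SLC25A23 and SLC25A25 had log2 fold changes of -0.08 and 0.03, and SLC25A41 averaged 0.13 TPM in irradiated tumors and 0.0733 TPM in controls. Among relatives of the uncoupling proteins, SLC25A14, SLC25A27 and SLC25A30 had log2 fold changes of -0.17, 0.19 and 0.18, all with overlapping groups.

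Of the 9 measured carriers of cofactors and nucleotides, 4 were lower and 1 was higher at an unadjusted p under 0.05, where 11.5% of all genes were lower and 8.93% higher. The group as such was not tested. SLC25A33, which brings pyrimidine nucleotides into mitochondria for making their DNA and RNA, had 3.19, 4.29 and 4.13 TPM in irradiated tumors, against 7.37, 5.62 and 9.40 TPM in controls. No irradiated tumor reached a control, and the log2 fold change of -0.78 ± 0.23 (SE; 95% interval -1.31 to -0.25, limma adjusted p = 0.110) was the lowest of the 40. SLC25A36, a second carrier of pyrimidine nucleotides, had 13.02, 13.66 and 10.75 TPM in irradiated tumors and 21.44, 17.94 and 15.15 TPM in controls. Its groups did not overlap either (log2 fold change -0.50, adjusted p = 0.177).

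SLC25A26, which imports S-adenosylmethionine for methylation inside mitochondria, had 22.88, 25.62 and 21.83 TPM in irradiated tumors and 27.49, 36.45 and 31.56 TPM in controls (log2 fold change -0.42, limma adjusted p = 0.188). All irradiated values were below all control values. Exons of SLC25A26 overlap those of LRIG1 on the opposite strand, and whether counting used strand is not given in the sources used here.

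SLC25A42, which carries coenzyme A into the matrix, was the member of this group that went the other way. It had 5.90, 6.19 and 5.89 TPM in irradiated tumors, against 4.93, 2.16 and 2.57 TPM in controls. The irradiated values were close together and above all controls, of which tumor 1 was the nearest. Its log2 fold change of 0.78 ± 0.27 (SE; 95% interval 0.17 to 1.40, limma adjusted p = 0.148) was the highest of the 40, at a low mean level of 4.61 TPM. With single tumors left out it ranged from 0.60 without control tumor 2 to 1.06 without control tumor 1. The limma adjusted p then ranged from 0.0663 to 0.328. Without control tumor 2, SLC25A20 was higher, at 0.70. Overlapping groups were seen for the folate carrier SLC25A32 (log2 fold change -0.32), the NAD carrier SLC25A51 (-0.44), the peroxisomal SLC25A17 (-0.14) and SLC25A16 (-0.16), with adjusted p between 0.311 and 0.746. SLC25A52, a near copy of SLC25A51 with 94.5% of coding bases identical, was listed at 0 in every tumor.

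**Figure D2:**
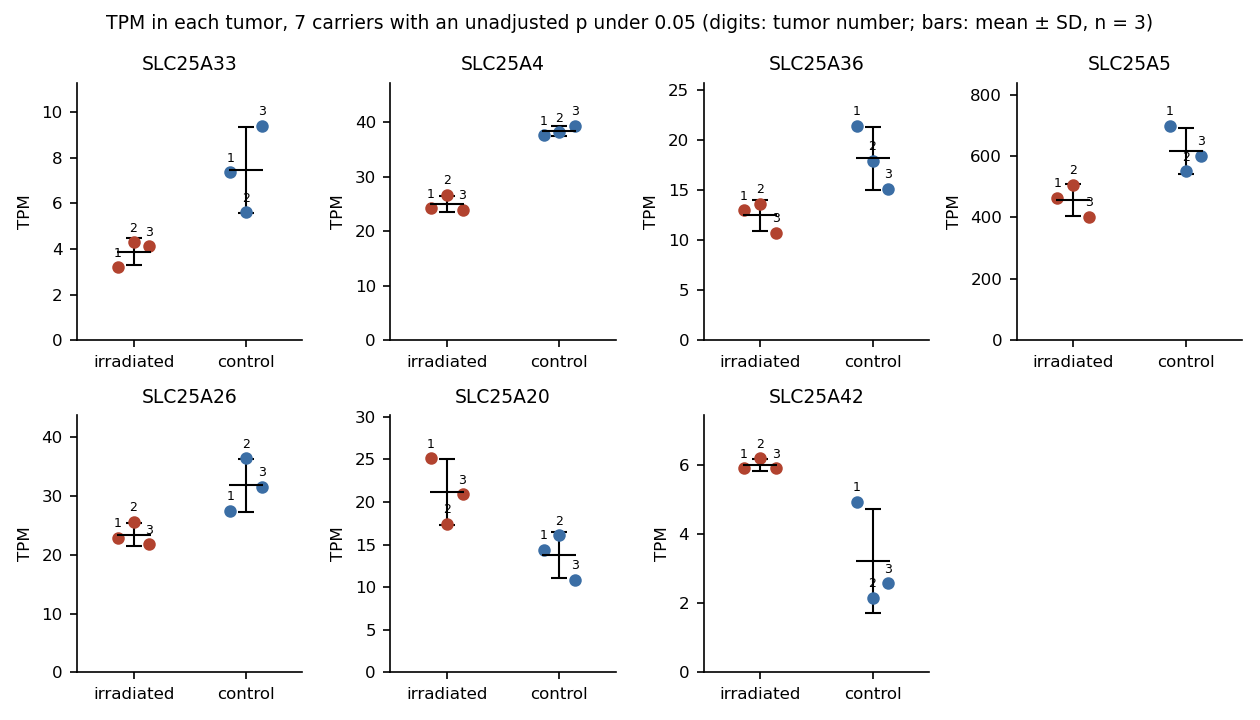
TPM in each tumor (vertical axis, from 0) for 7 carriers with an unadjusted p under 0.05, irradiated tumors in red and controls in blue, with digits for tumor numbers and bars for mean ± SD of 3 tumors. In all 7 the groups do not overlap, with SLC25A4 at 23.9 to 26.7 TPM in irradiated tumors and 37.6 to 39.3 TPM in controls, and SLC25A20 and SLC25A42 the 2 that are higher in irradiated tumors.

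SLC25A20 exchanges acylcarnitines for carnitine and so feeds long-chain fatty acids to oxidation in the matrix. It had 25.2, 17.4 and 20.9 TPM in irradiated tumors, against 14.4, 16.1 and 10.9 TPM in controls. All irradiated tumors were above all controls, with irradiated tumor 2 and control tumor 2 the closest to each other. The log2 fold change was 0.58 ± 0.21 (SE; 95% interval 0.11 to 1.06, limma adjusted p = 0.160). The 4 carnitine palmitoyltransferase genes were measured as well. CPT1C, the brain-type relative, had 21.6, 19.0 and 25.1 TPM in irradiated tumors and 16.8, 16.7 and 14.0 TPM in controls (log2 fold change 0.44, limma adjusted p = 0.189). CPT2, which rebuilds acyl-CoA in the matrix, had a log2 fold change of 0.27, and CPT1A, which loads fatty acids onto carnitine, one of 0.06, both with overlapping groups. CPT1B, the muscle form of that enzyme, had 4.24, 3.74 and 2.89 TPM in irradiated tumors and 12.3, 1.61 and 8.12 TPM in controls. The 6 adipocyte markers summed to 1.59 to 4.13 TPM in irradiated tumors and 0.60 to 1.03 TPM in controls, with ADIPOQ and LEP at 0 in all tumors. CIDEC averaged 1.52 TPM in irradiated tumors and 0.183 TPM in controls, whereas FABP4, PLIN1 and PLIN4 overlapped between the groups. None of the 6 reached a mean of 1 TPM over all tumors, and the part of adipocytes was not tested. The choline carrier SLC25A48 was listed at 0 in 5 tumors.

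Carriers of amino acids had no unadjusted p under 0.05 among 7 measured. SLC25A13 (citrin), one of the pair of calcium-regulated carriers that send aspartate out of mitochondria in exchange for glutamate, had 16.4, 19.6 and 20.7 TPM in irradiated tumors and 32.8, 19.3 and 27.9 TPM in controls. Control tumor 2 was inside the irradiated range (log2 fold change -0.45, limma adjusted p = 0.281). With single tumors left out the log2 fold change ranged from -0.66 without control tumor 2 to -0.29 without control tumor 1. The limma adjusted p then ranged from 0.0673 without control tumor 2 to 0.561 without irradiated tumor 1. SLC25A12 (aralar), its partner in the malate-aspartate shuttle, had 7.36, 9.06 and 9.09 TPM in irradiated tumors and 9.13, 5.35 and 7.30 TPM in controls (0.22, adjusted p = 0.602). Neither carrier alone separated the groups.

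SLC25A38, which imports glycine for the first step of heme synthesis, had 65.55, 64.52 and 58.44 TPM in irradiated tumors and 51.88, 56.06 and 55.51 TPM in controls, with no overlap (log2 fold change 0.20, limma adjusted p = 0.410). The 8 erythroid markers summed to 0.13 to 0.65 TPM in irradiated tumors and 0.29 to 5.39 TPM in controls. SLC25A29, a carrier of basic amino acids, had 14.7, 15.1 and 21.3 TPM in irradiated tumors and 13.58, 9.68 and 16.95 TPM in controls (0.34, adjusted p = 0.463). SLC25A44, which imports branched-chain amino acids, had 9.50, 16.2 and 14.0 TPM in irradiated tumors and 13.9, 8.84 and 8.96 TPM in controls (0.30, adjusted p = 0.535). In both the groups overlapped. The glutamate carrier SLC25A22 and the ornithine carrier SLC25A15 had log2 fold changes of 0.23 and -0.46, also with overlap, and SLC25A2 was listed at 0 in every tumor.

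Carriers of citrate and other acids overlapped between the groups without exception. SLC25A1, which exports citrate for fatty acid and sterol synthesis, averaged 105 ± 21.0 TPM in irradiated tumors and 99.4 ± 7.27 TPM in controls (SD, n = 3 each; log2 fold change 0.06, limma adjusted p = 0.870). SLC25A10, which exchanges malate or succinate for phosphate, had 17.8, 16.7 and 21.6 TPM in irradiated tumors and 30.95, 20.01 and 26.22 TPM in controls (-0.43, adjusted p = 0.265). Only control tumor 2 reached into the irradiated range. SLC25A11, the oxoglutarate carrier, had a log2 fold change of -0.11, and SLC25A35, whose substrate is less settled, one of -0.16. SLC25A21, which carries longer oxodicarboxylates, was at 1.19 to 1.84 TPM in irradiated tumors and at 2.52, 1.60 and 5.70 TPM in controls, and its exons overlap those of PAX9 and of an antisense transcript on the opposite strand.

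Iron and glutathione carriers had no unadjusted p under 0.05. SLC25A28, mitoferrin 2, had 81.7, 63.6 and 58.2 TPM in irradiated tumors and 62.2, 33.3 and 71.1 TPM in controls (log2 fold change 0.34, limma adjusted p = 0.524). Control tumor 2 was the low one, and without it the log2 fold change was 0.01. SLC25A37, mitoferrin 1, averaged 47.1 ± 10.4 TPM in irradiated tumors and 52.4 ± 17.4 TPM in controls (SD, n = 3 each; -0.13). SLC25A39, which imports glutathione, averaged 166 ± 7.54 TPM in irradiated tumors and 176 ± 23.7 TPM in controls (-0.07), and its relative SLC25A40 averaged 5.36 ± 1.62 TPM in irradiated tumors and 4.93 ± 0.50 TPM in controls (0.07).

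The rest of the family was SLC25A46 and carriers with no settled substrate. SLC25A46, which acts on mitochondrial shape, had 14.2 to 15.3 TPM in irradiated tumors and 15.9 to 22.6 TPM in controls, without overlap (log2 fold change -0.31, limma adjusted p = 0.359). SLC25A45 had 4.57, 3.83 and 4.85 TPM in irradiated tumors and 4.57, 2.01 and 2.10 TPM in controls (0.53, adjusted p = 0.329). SLC25A53 had 3.73, 3.28 and 2.17 TPM in irradiated tumors and 2.28, 2.87 and 1.53 TPM in controls (0.33, adjusted p = 0.514). Both overlapped between the groups, and so did SLC25A43 (-0.12). SLC25A47 did not exceed 0.04 TPM.

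**Figure D3:**
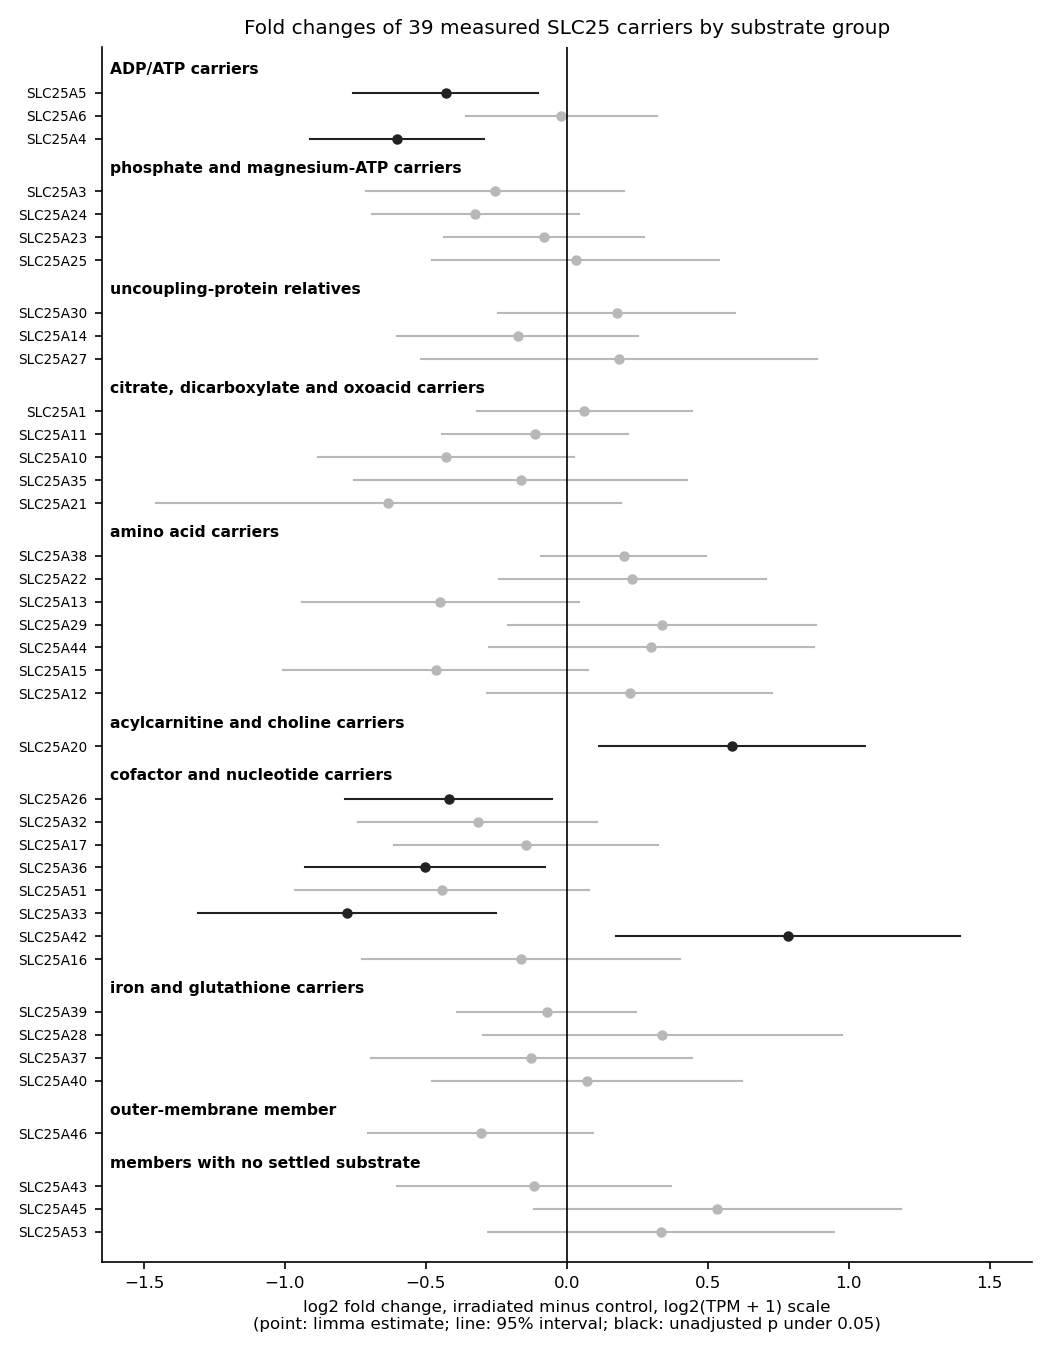
Fold change of log2(TPM + 1), irradiated minus control (horizontal axis), for 39 of the 40 measured carriers, ordered by substrate group, with points for limma's estimates, lines for 95% intervals and black for an unadjusted p under 0.05. Of the 7 in black, 5 lie below 0, among them SLC25A4 at -0.60 and SLC25A33 at -0.78, and SLC25A20 and SLC25A42 lie above 0 at 0.58 and 0.78.

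Ratios between related carriers do not depend on how tumors are scaled, since both values come from the same library. Over 11 pairs of related carriers the ratio did not overlap between the groups in 3. The clearest separation relative to its spread was SLC25A12 over SLC25A13, at 0.448, 0.463 and 0.439 in irradiated tumors and 0.278, 0.278 and 0.262 in controls. As a share of the pair's summed TPM, SLC25A12 made up 31.0% ± 0.58 in irradiated tumors and 21.4% ± 0.59 in controls (SD, n = 3 each), a difference of 9.61 percentage points that stayed between 9.27 and 9.87 with single tumors left out. The mean log2 ratio differed by 0.72, which is given as a description with no test, since the pairs were listed with values known. Exons of SLC25A12 (chr2:171784370-171999859 in GRCh38, minus strand) overlap those of METAP1D on the opposite strand, and SLC25A13 (chr7:96120220-96322147, minus strand) overlaps no other annotated exon.

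The other 2 pairs without overlap were SLC25A4 over SLC25A6 and SLC25A23 over SLC25A24. SLC25A4 over SLC25A6 was 0.0607, 0.0619 and 0.0444 in irradiated tumors and 0.0908, 0.0773 and 0.0832 in controls, a log2 difference of -0.60. SLC25A23 over SLC25A24 was 1.05, 1.01 and 1.03 in irradiated tumors and 0.878, 0.743 and 0.988 in controls, a log2 difference of 0.25. The ratio of mitoferrin 2 to mitoferrin 1, SLC25A28 over SLC25A37, overlapped between the groups at 1.84, 1.09 and 1.52 in irradiated tumors and 1.40, 0.824 and 0.983 in controls.

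**Figure D4:**
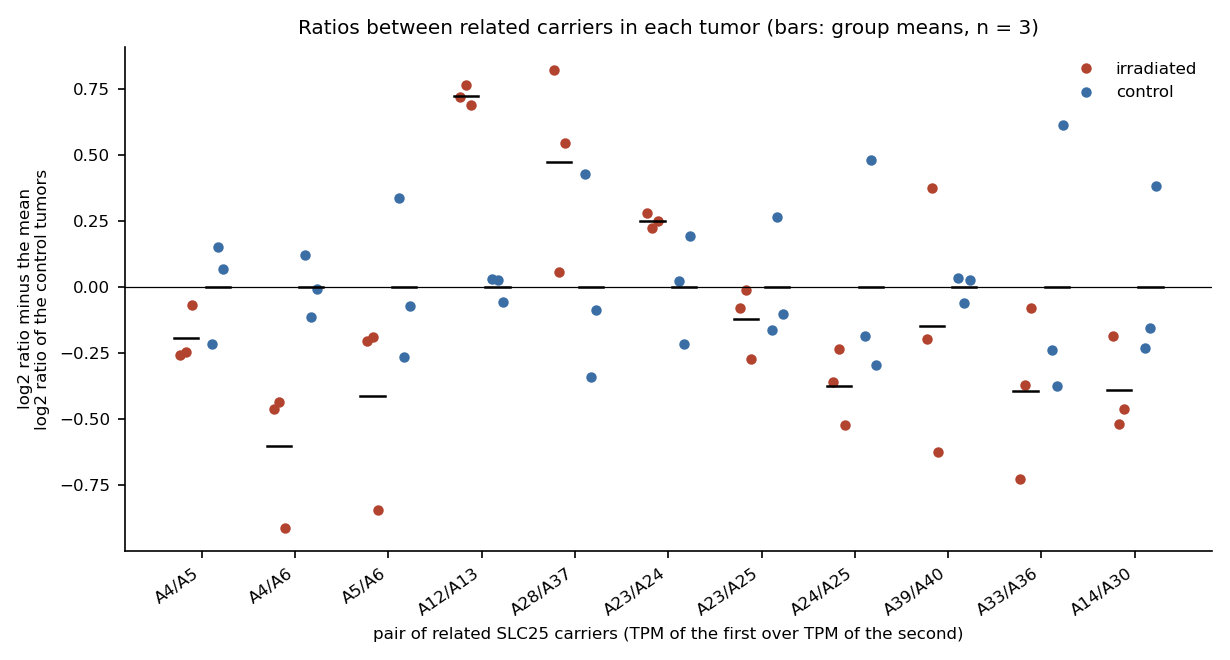
Log2 ratio of TPM for 11 pairs of related carriers in each tumor, minus the mean log2 ratio of the controls, with irradiated tumors in red left of controls in blue and bars for group means of 3 tumors. The SLC25A12 to SLC25A13 ratio is 0.72 above the controls with little spread within either group, and most other pairs overlap.

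Genes of other mitochondrial transport proteins, and of enzymes that use what the carriers move, were read from a list of 51. That list was chosen with earlier results of these data known, and 48 of its genes were measured. None of them was called over all genes with limma, with 1 higher and 13 lower at an unadjusted p under 0.05, 29.2% of the 48 against 20.5% of all genes (8.93% higher and 11.5% lower). Their median log2 fold change was -0.23, against -0.06 over all genes, and in 1 the irradiated tumors lay above all controls and in 14 below (2.08% higher, against 11.6% of all genes, and 29.2% lower, against 15%). VDAC2, an outer-membrane channel through which metabolites reach the carriers, had 231, 237 and 236 TPM in irradiated tumors and 349, 332 and 313 TPM in controls. It had the lowest adjusted p of the list, with a log2 fold change of -0.49 (adjusted p = 0.0568). The channels VDAC1 and VDAC3 had the same order of groups, with log2 fold changes of -0.50 each (adjusted p = 0.0805 and 0.0879).

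Some carriers of the same fold go by other symbols. MTCH2, an outer-membrane member, had 166, 156 and 150.2 TPM in irradiated tumors and 225, 201 and 263 TPM in controls (log2 fold change -0.53, limma adjusted p = 0.0816). UCP2, an uncoupling protein, had 92.6, 99.2 and 94.3 TPM in irradiated tumors and 123, 97.8 and 208 TPM in controls (-0.51, adjusted p = 0.298), with control tumor 2 inside the irradiated range. UCP1 was listed at 0 in every tumor. Listed apart from these carriers, MCUB, an inhibitory subunit of the mitochondrial calcium uniporter, had 19.01, 15.65 and 15.40 TPM in irradiated tumors and 30.99, 28.87 and 23.11 TPM in controls (-0.69, limma adjusted p = 0.0755). Without control tumor 2, 4 of the 48 were called lower, namely VDAC3, MTCH2, SFXN1 and CPT1B, and with sample weights 5 were, namely the 3 VDAC genes, MTCH2 and TIMM10B.

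Of the 10 measured genes that import carriers into the inner membrane, 9 had a log2 fold change below 0, as did 55.7% of all genes, and in 4 all irradiated tumors lay below all controls (40% of the 10, against 15% of all genes). In the other 6 the groups overlapped. TIMM10B, of the small TIM chaperones, had 8.39, 6.95 and 7.47 TPM in irradiated tumors and 10.54, 12.44 and 18.25 TPM in controls (log2 fold change -0.75, limma adjusted p = 0.112). Among enzymes that make or use what the carriers move, ACO1, the cytosolic aconitase, had 18.0, 30.8 and 29.9 TPM in irradiated tumors and 53.5, 40.3 and 49.6 TPM in controls (-0.87, adjusted p = 0.0832). In both the groups did not overlap. The subunits of the pyruvate carrier, MPC1 and MPC2, had log2 fold changes of 0.19 and 0.14.

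Promoter sequence was compared across the family from RefSeq windows of 250 bases before to 50 after a gene's start (GRCh38.p14), which were at hand for 34 of the 40. The median GC content of these windows was 67.7%, against 58.3% over all genes. Motifs were searched on both strands as letters, and none holds another of them. A gene counted if any of its windows matched, and the 34 had 43 windows. The genes compared were all those with such a window, whether or not expressed in these tumors, so they are unlike the 34 measured carriers. The E-box CACGTG stood in 8 of the 34 (23.5%, against 8.79% of 27195 genes), the ETS letters CCGGAAG in 10 (29.4%, against 12.2%), CCAAT in 20 (58.8%, against 39.7%), the NRF1 motif in 3 (8.82%, against 6.99%) and the ESRRA letters TCAAGGTCA in 0 (against 0.43%). A match describes letters in these windows and says nothing of binding, which was not measured here.

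Printed here is the sequence before the start of SLC25A4, the carrier with the lowest p, and of SLC25A33 and SLC25A42, those with the lowest and highest log2 fold change. Capitals mark the motif letters above. They lie at chr4:185143016-185143240, chr1:9539215-9539464 and chr19:19063744-19063993, all on the plus strand of GRCh38.p14. The SLC25A4 stretch holds 1 ETS motif and 1 CCAAT, that of SLC25A33 an E-box near its end and 1 CCAAT, and that of SLC25A42 holds CCAAT on both strands.
SLC25A4: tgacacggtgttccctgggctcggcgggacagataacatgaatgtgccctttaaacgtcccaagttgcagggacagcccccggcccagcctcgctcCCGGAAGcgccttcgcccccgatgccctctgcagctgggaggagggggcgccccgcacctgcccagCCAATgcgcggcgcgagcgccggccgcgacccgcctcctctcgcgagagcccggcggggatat
SLC25A33: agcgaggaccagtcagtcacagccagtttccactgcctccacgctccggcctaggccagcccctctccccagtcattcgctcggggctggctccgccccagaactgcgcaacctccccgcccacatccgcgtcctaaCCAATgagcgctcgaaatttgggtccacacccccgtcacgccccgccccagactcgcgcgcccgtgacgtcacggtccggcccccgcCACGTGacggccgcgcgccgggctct
SLC25A42: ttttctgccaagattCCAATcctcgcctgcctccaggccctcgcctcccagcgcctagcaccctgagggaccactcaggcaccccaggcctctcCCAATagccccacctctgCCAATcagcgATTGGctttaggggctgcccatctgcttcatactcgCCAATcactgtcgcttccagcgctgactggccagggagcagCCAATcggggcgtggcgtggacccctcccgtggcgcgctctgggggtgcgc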

How the data were processed

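The deposited table gives TPM per gene, computed by the authors, with 1 column for each of 6 tumors, and all 6 were used. Per the submitters' processing notes the tools were HISAT2, StringTie and RSEM and the build hg38, and per the labels' protocols TruSeq RNA libraries were made from total RNA. Versions, annotation release, strand setting and handling of mouse sequence are not stated there. TPM keeps no depth, so no counting interval or count test applies. Columns fell short of the full TPM total by 0.523% to 0.774% in irradiated tumors and 0.143% to 0.198% in controls.

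The 14140 genes averaging 1 TPM or more entered limma 3.58.1 in R 4.3.3 as log2(TPM + 1), with an intensity trend, group as the only term, two-sided tests and Benjamini-Hochberg adjustment, called under 0.05. Fold changes on this scale understate changes of low genes. The fit was tested on simulated data. The members, lists, pairs and motifs were chosen with earlier results of these data known. Values in each tumor are otherwise given for members with the 8 lowest p-values in each direction, the ADP/ATP carriers and the 3 most abundant; partners were named up to 4 by p, and further ones after their values were seen. The values of 1 carrier, which is kept in the counts, are not reported here. Coordinates and overlaps come from GENCODE release 29, in which all 48 identifiers were found, and 10 of the 40 members overlap exons of a gene of at least 1 TPM on the other strand and 1, SLC25A51, on the same strand. Alternatives were other pseudocounts, filters, scalings and variance models, a replicate block, and tumors left out.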

Additional observations from a re-analysis of the deposited data

How the results depend on the processing

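The count of SLC25 carriers called was 0 in the fit described and under 15 of 17 alternatives; it was 1 with a minimum mean of 5 TPM, where 34 carriers were tested, and 2 with sample weights. With single tumors left out it was 0 each time. The partner genes called were 0, and 5 with sample weights, and ranged from 0 to 4 with single tumors left out. Over all genes 421 were called, against 133 with no filter on low values, 279 without trend, 1064 with sample weights and 127 to 791 with single tumors left out, the last with fewer samples. It was 186 without control tumor 2 and irradiated tumor 2 together, an alternative added after seeing the data, under which 0 SLC25 carriers were called. With a replicate block 185 genes and 0 SLC25 carriers were called. The labels give no pairing between tumors of the same number. The correlations of their deviations from group means were -0.043, -0.046 and -0.059. No irradiated tumor correlated best with the control of its own number. With group means of only 3 tumors, these correlations cannot exclude a shared batch or day. The direction of SLC25A6, at -0.02, turned with medians of ratios (0.0326), without mitochondrially encoded and ribosomal protein genes (0.0226), without control tumor 2 and irradiated tumor 2 together (0.0681), and with single tumors left out (range -0.144 to 0.0708). The other 17 carriers refitted one by one kept their direction under each alternative run. The family's median ranged from -0.19 to -0.02, and that of all genes from -0.14 to 0.02. The summed TPM of the ADP/ATP carriers differed by -176 TPM, irradiated minus control, and by -217 TPM without mitochondrially encoded and ribosomal protein genes. That alternative scaled each column back to the full total, which raises every remaining TPM value. Its log2 fold changes were smaller, at -0.57 against -0.60 for SLC25A4 and -0.39 against -0.43 for SLC25A5. The cause of the other shifts was not tested. Depth is unknown, so no counting error can be given for the 6 carriers below 5 TPM.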

Other observations

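Beside the carriers, the table lists 43 rows named as SLC25 pseudogenes and 6 as antisense transcripts. Of the pseudogenes 30 were at 0 in every tumor, and SLC25A5P5, a copy of SLC25A5, was the highest, at 0.87, 1.09 and 0.20 TPM in irradiated tumors and 1.42, 0.91 and 2.31 TPM in controls. These values are small beside the 401 to 698 TPM of SLC25A5 itself. SLC25A25-AS1, a transcript antisense to the magnesium-ATP carrier gene SLC25A25, was at 0.61, 0.48 and 0.43 TPM in irradiated tumors and 1.37, 0.33 and 1.98 TPM in controls. SLC25A21-AS1 was at 2.83, 2.83 and 2.03 TPM in irradiated tumors and 2.33, 1.98 and 2.33 TPM in controls, about the level of SLC25A21.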
